A study of Diplotaxodon limnothrissa and Petrotilapia genalutea and Rhamphochromis longiceps with 60 samples.

Results

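The transcriptome of skeletal muscle was compared between 2 open-water and 2 rock-dwelling cichlid species of Lake Malawi. The open-water species were Diplotaxodon limnothrissa (DL), which lives in deep open water, and Rhamphochromis longiceps (RL), a pelagic predator of fish. The rock-dwellers were Maylandia zebra (MZ) and Petrotilapia genalutea (PG), both algae eaters of the mbuna group. All fish were adult wild-caught males that received no treatment, they were bought dead from fishermen, and the tissue was homogenised whole. With 3 fish per species, 6 open-water muscles were set against 6 rock-dweller muscles, out of 60 samples in the whole series. The question was which genes separate the habitats whichever species stand for them, so a gene had to differ in the same direction, with an adjusted p under 0.01, in each of the 4 cross-habitat species pairs (DL against MZ, DL against PG, RL against MZ, RL against PG).

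Of 29676 genes listed, 18101 reached 1 TPM in at least 2 of the 12 muscle libraries and were tested. TPM, the unit of the deposited table, is the share of a gene among all transcripts of a library after correction for transcript length. The 4 pairs shared 259 genes, called concordant here: 98 were higher and 161 lower in open-water muscle. They make up 1.43% of the genes tested, or 0.541% and 0.889% by direction. DL against MZ alone called 3.40% of the genes tested, DL against PG 10.6%, RL against MZ 5.82% and RL against PG 11.8%. Differences are on the log2(TPM + 1) scale from limma, with p-values adjusted by Benjamini-Hochberg over all genes tested.

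Muscle fibres run on ATP that comes from creatine phosphate, from the breakdown of glycogen and glucose in glycolysis, and from oxidation in mitochondria. Glycolysis supplies short bursts of force in white muscle, which forms most of the body of a fish, and mitochondria supply sustained swimming. A further set of genes, the immediate-early transcription factors and the heat shock chaperones, is known in many vertebrates to respond within hours to exertion, heat, lack of oxygen or handling. The roles of single genes given here are known mainly from mammals.

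Muscle identity could be checked only in part. Genes of the sarcomere and contractile apparatus summed to between 33104 and 60094 TPM in the open-water muscles and to between 15275 and 40821 TPM in the rock-dweller muscles. The fast-twitch marker actn3, the only gene of its list that was tested, lay between 1821 and 2839 TPM in open-water and between 1247 and 2870 TPM in rock-dweller muscle. The 4 tested genes of the slow-twitch list summed to between 26.5 and 246.9 TPM in open-water and to between 18.4 and 295.6 TPM in rock-dweller libraries, with 1 lower and 0 higher by the habitat average (limma). That gene was atp2a2, the calcium pump of slow and heart muscle, with 3.39 ± 1.73 TPM in open-water and 20.1 ± 12.1 TPM in rock-dweller muscle (SD, n = 6 each, adjusted p = 0.000359), while mb, the oxygen-binding myoglobin, had 47.97 ± 32.4 TPM in open-water and 32.4 ± 35.9 TPM in rock-dweller muscle and did not pass. The part of fibre type in the differences of energy genes was not tested. The 3 tested genes of the liver list summed to at most 8.05 TPM in open-water and 18.7 TPM in rock-dweller libraries. The 10 most abundant genes took 27.8 to 33.9% of the transcripts in open-water and 32.6 to 39.8% in rock-dweller libraries.

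The concordant genes held very different shares of the muscle transcriptome. The 98 genes that were higher in open-water muscle took 4.24 to 15.8% of all transcripts in the 6 open-water libraries and 0.192 to 1.23% in the 6 rock-dweller libraries. The 161 genes that were lower took 0.214 to 0.507% in open-water and 1.73 to 6.71% in rock-dweller libraries. The rule fixed both directions, so these shares describe the genes and test nothing. The median habitat difference was 2.14 for the genes that were higher and -2.39 for those that were lower, against 0.07 over all genes tested. In all 259 the 6 open-water libraries did not overlap the 6 rock-dweller libraries, which held for 10.7% of all genes tested.

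**Figure D1:**
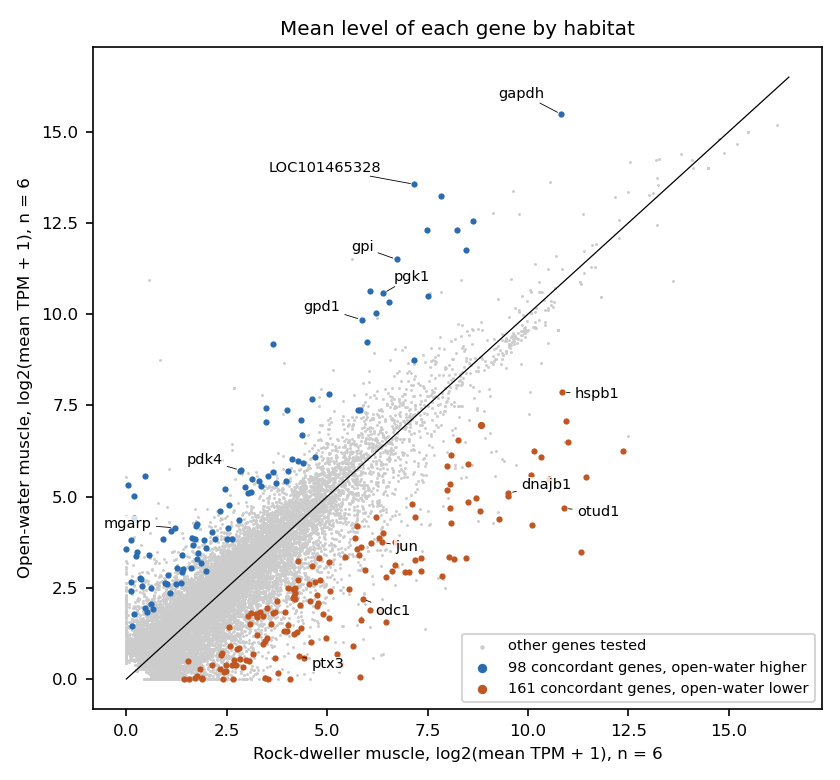
Each point is a gene, placed by its mean TPM in the 6 open-water muscles (vertical axis) and in the 6 rock-dweller muscles (horizontal axis), both as log2(mean + 1), and the line marks equal levels. The 98 and the 161 concordant genes lie away from the line on either side, with gapdh and LOC101465328 at the top and hspb1 and otud1 among the most abundant genes below it.

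The most abundant concordant genes with a symbol that were higher in open-water muscle encode enzymes of glycolysis. gapdh, the glyceraldehyde-3-phosphate dehydrogenase of this pathway, had 14708, 25716 and 34231 TPM in the 3 DL and 84198, 57058 and 58535 TPM in the 3 RL, against 5331, 1374 and 689 TPM in the 3 MZ and 1429, 1518 and 578 TPM in the 3 PG. Its mean was 45741 ± 25563 TPM in open-water and 1820 ± 1766 TPM in rock-dweller muscle (SD, n = 6 each), 25.1 times as high, and the largest adjusted p of the 4 pairs was 0.00439 (limma). The highest rock-dweller library stayed below the lowest open-water library. RL lay above DL in every fish, but DL and RL did not differ at the threshold (adjusted p = 0.263, limma).

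gpi, the glucose-6-phosphate isomerase, had 1028, 1870 and 2480 TPM in DL and 3841, 4441 and 3718 TPM in RL, against 379, 20.6 and 19.3 TPM in MZ and 72.2, 109 and 32.0 TPM in PG. The habitat difference was 5.45 ± 0.64 (SE), and the groups did not overlap although the MZ fish spread widely. pgk1, the phosphoglycerate kinase, was steadier, with 637, 823 and 1301 TPM in DL and 1965, 2393 and 1999 TPM in RL against 149, 59.5 and 72.7 TPM in MZ and 86.3, 80.6 and 49.9 TPM in PG. Its mean was 18.3 times as high in open-water muscle, with a largest adjusted p of 0.000428 (limma). bpgm, the mutase that makes 2,3-bisphosphoglycerate from a glycolytic intermediate, averaged 132 ± 84.5 TPM in open-water and 10.1 ± 3.71 TPM in rock-dweller muscle (SD, n = 6 each).

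Enzymes at the exits of glycolysis towards glycogen and glycerol phosphate were concordant as well. gpd1, the cytosolic glycerol-3-phosphate dehydrogenase, had 434, 663 and 922 TPM in DL and 1049, 1300 and 1155 TPM in RL, against 114, 69.0 and 36.1 TPM in MZ and 48.4, 57.8 and 16.7 TPM in PG. pgm1, the phosphoglucomutase that links glucose phosphates to glycogen, averaged 1281 ± 553 TPM in open-water and 92.7 ± 71.9 TPM in rock-dweller muscle (SD, n = 6 each). gbe1, the glycogen branching enzyme, lay between 21.8 and 44.8 TPM in open-water and between 3.64 and 11.8 TPM in rock-dweller muscle. ppp1r3f, a subunit that directs protein phosphatase 1 to glycogen, lay between 89.9 and 337 TPM in open-water and between 11.999 and 58.4 TPM in rock-dweller muscle. In all 4 genes the highest rock-dweller library lay under the lowest open-water library. epm2a, the glycogen phosphatase laforin, was concordant at a lower level, with 13.4 ± 1.79 TPM in open-water and 4.66 ± 1.005 TPM in rock-dweller muscle (SD, n = 6 each).

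Of 26 tested genes of glycolysis, glycogen and phosphagen metabolism, 13 were higher and 1 lower in open-water muscle by the habitat average, the mean of DL and RL minus the mean of MZ and PG. Over all genes tested this contrast called 17.1%, with 8.45% higher and 8.68% lower. The median difference of the list was 1.004, against 0.07 over all genes tested. Besides 6 concordant genes (gpi, gapdh, pgk1, pgm1, ppp1r3f and gbe1), the called genes included agl, the glycogen debranching enzyme, at 248 ± 162 TPM in open-water and 27.8 ± 12.5 TPM in rock-dweller muscle, and gys1, the muscle glycogen synthase, at 236 ± 98.3 TPM in open-water and 75.3 ± 21.3 TPM in rock-dweller muscle (SD, n = 6 each). slc2a4, the glucose transporter that responds to insulin, was called too, with 15.1 ± 6.41 TPM in open-water and 4.64 ± 3.44 TPM in rock-dweller muscle. The gene that was lower was pfkfb3, which makes the activator of phosphofructokinase, at 1.25 ± 0.538 TPM in open-water and 6.44 ± 3.80 TPM in rock-dweller muscle. Among the genes called as higher, gpi, gapdh and pgk1 are the enzymes of glycolysis itself. The other 12 did not pass, among them eno1, the enolase of most tissues other than muscle and nerve, with 144.5 ± 58.9 TPM in open-water and 131 ± 35.9 TPM in rock-dweller muscle. The hexokinase hk1 did not pass either, with 5.23 ± 1.54 TPM in open-water and 6.80 ± 2.68 TPM in rock-dweller muscle. No aldolase, pyruvate kinase or lactate dehydrogenase was among the tested genes of the list. Near-identical copies of gapdh, gpi and other enzymes may stand in the table without a symbol, and how reads were split between such copies was not tested. The 13 higher genes were 13 without any single library, but the 6 concordant ones were 1 without MZ-2 or MZ-3, 2 without DL-2 or DL-3, and 3 without RL-1, RL-2 or RL-3.

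**Figure D2:**
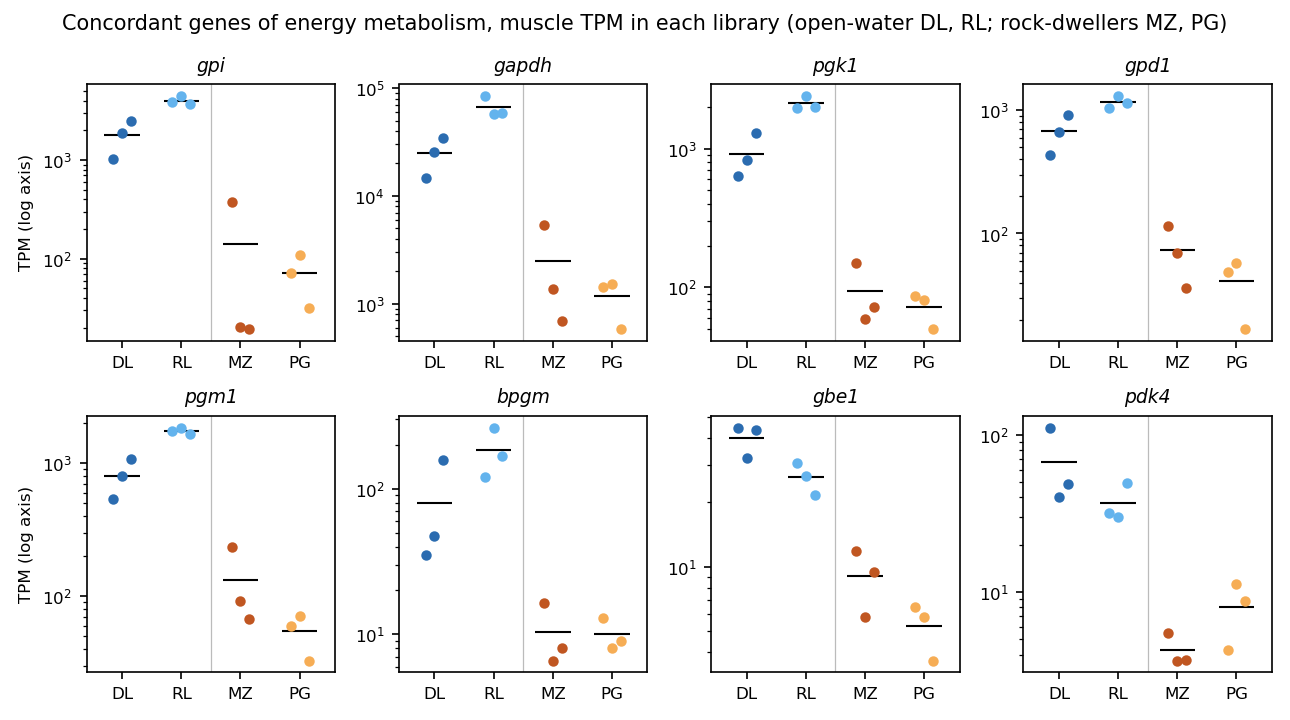
TPM of 8 concordant genes of energy metabolism in each of the 12 muscle libraries (points, log axes) with the mean of each species (lines), for the open-water species DL and RL and the rock-dwellers MZ and PG. In each panel all 6 open-water libraries lie above all 6 rock-dweller libraries. MZ-1 is the rock-dweller library nearest to them in every panel but that of pdk4.

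Several concordant genes act at the entry of fuel into mitochondria or inside them. Of those given here and in the next paragraph, dlat, sirt3, coq7, mtfp1 and atp23 were grouped by role after their values were seen. The share of such genes among all genes tested was not counted. pdk4, the kinase that shuts off pyruvate dehydrogenase, had 111, 40.4 and 48.6 TPM in DL and 32.0, 29.9 and 49.3 TPM in RL, against 5.49, 3.65 and 3.69 TPM in MZ and 4.30, 11.2 and 8.77 TPM in PG. dlat, a core subunit of the same pyruvate dehydrogenase, averaged 61.8 ± 14.2 TPM in open-water and 18.5 ± 4.29 TPM in rock-dweller muscle (SD, n = 6 each). etfb, which carries electrons from fatty acid oxidation, lay between 38.3 and 81.2 TPM in open-water and between 14.3 and 28.6 TPM in rock-dweller muscle.

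mgarp, which encodes a glutamic acid-rich protein of mitochondria, differed with little spread between fish. It had 17.3, 15.3 and 16.8 TPM in DL and 13.1, 21.9 and 15.6 TPM in RL, against 1.72, 0.774 and 0.897 TPM in MZ and 2.02, 0.748 and 1.65 TPM in PG, with a habitat difference of 2.96 ± 0.19 (SE) and a largest adjusted p of 9.15e-05 over the 4 pairs (limma). sirt3, the mitochondrial deacetylase, averaged 5.14 ± 1.18 TPM in open-water and 0.964 ± 0.456 TPM in rock-dweller muscle (SD, n = 6 each). coq7, an enzyme of ubiquinone synthesis, mtfp1, a factor of mitochondrial fission, and atp23, a protease of the inner membrane, had habitat differences of 1.22, 1.60 and 1.69. gchfr, which regulates the enzyme that starts tetrahydrobiopterin synthesis, lay between 16.6 and 30.3 TPM in open-water and between 2.49 and 5.71 TPM in rock-dweller muscle.

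The wider mitochondrial lists moved the same way with few concordant genes among them. By symbol, the tested genes of oxidative phosphorylation cover complexes I and II, the ATP synthase and assembly factors. No uqcr or cox gene of complexes III and IV was among them. Of the 58 tested genes, 36 were higher, 0 were lower and 22 did not pass by the habitat average (limma, adjusted p under 0.01), with a median difference of 1.002. None was concordant, yet 51 of 58 (87.9%) had a higher mean in the open-water species in all 4 pairs, against 31.4% of all genes tested. Their sum lay between 5926 and 10139 TPM in open-water and between 2639 and 5294 TPM in rock-dweller libraries. atp5mf, a subunit of the ATP synthase, had 661 ± 198 TPM in open-water and 223 ± 45.9 TPM in rock-dweller muscle (SD, n = 6 each), and was called in 3 of the 4 pairs. ndufb5, a subunit of complex I, had 159.6 ± 30.4 TPM in open-water and 60.3 ± 13.3 TPM in rock-dweller muscle. sdha, the catalytic subunit of complex II, did not pass, with 58.7 ± 23.1 TPM in open-water and 55.1 ± 18.7 TPM in rock-dweller muscle.

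Of 42 tested genes of the citrate cycle and fatty acid oxidation, 17 were higher and 1 lower, with a median difference of 0.84. cs, the citrate synthase, had 168 ± 48.7 TPM in open-water and 79.9 ± 10.3 TPM in rock-dweller muscle (SD, n = 6 each). hadhb, the thiolase of the mitochondrial trifunctional protein, had 195 ± 130 TPM in open-water and 41.1 ± 14.5 TPM in rock-dweller muscle. The gene that was lower was acsl4, an acyl-CoA synthetase that prefers arachidonate, with 2.83 ± 1.56 TPM in open-water and 16.6 ± 7.51 TPM in rock-dweller muscle. ppargc1a, a coactivator that drives mitochondrial growth, had 16.8 ± 8.96 TPM in open-water and 19.2 ± 13.1 TPM in rock-dweller muscle and did not pass (adjusted p = 0.99, limma).

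Genes that carry only an identifier were among those with the largest differences in this direction. LOC101465328 had 8297, 13771 and 15610 TPM in DL and 12362, 10885 and 11556 TPM in RL, against 231, 84.1 and 49.5 TPM in MZ and 350.1, 119.6 and 27.5 TPM in PG. Its smallest difference over the 4 pairs was 6.77, the largest such value of any gene tested. LOC101468896 averaged 1046 ± 291 TPM in open-water and 73.4 ± 99.3 TPM in rock-dweller muscle (SD, n = 6 each). LOC101467847 lay between 13.6 and 81.1 TPM in open-water muscle and was listed at 0 TPM in every rock-dweller library but PG-3, which had 0.128 TPM. All reads were assigned to the transcriptome of MZ, one of the rock-dwellers. Of the 98 genes, 30 carry a symbol, against 7679 of all 18101 genes tested.

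The other concordant genes with a symbol in this direction stand on none of the energy lists and had lower levels. gucy1a1, a subunit of the guanylate cyclase that senses nitric oxide, had the highest ratio of means among them, with 5.79 ± 2.24 TPM in open-water and 0.271 ± 0.171 TPM in rock-dweller muscle (SD, n = 6 each). pappa2, a protease that frees insulin-like growth factors from a binding protein, had 38.3 ± 14.3 TPM in open-water and 9.21 ± 1.97 TPM in rock-dweller muscle. aadat, an aminotransferase of lysine and kynurenine breakdown, pofut2, which adds fucose to secreted proteins, adamts15, a matrix protease, kif3a, a kinesin motor subunit, rnaseh1, which removes RNA from hybrids with DNA, arih2, a ubiquitin ligase, rtn1, a protein of the endoplasmic reticulum, and tspan18, fam234a and r3hdm4 had habitat differences between 1.25 and 2.33.

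Among the genes that were lower in open-water muscle, chaperones and their partners were abundant in rock-dweller muscle. hspb1, the small heat shock protein Hsp27, had 293, 169.5 and 199.8 TPM in DL and 157, 432 and 142 TPM in RL, against 835, 1045 and 1606 TPM in MZ and 2699, 1818 and 3120 TPM in PG. dnajb1, the Hsp40 that delivers clients to Hsp70, had 70.5, 43.3 and 31.1 TPM in DL and 17.1, 16.6 and 20.6 TPM in RL, against 222, 172 and 485 TPM in MZ and 1397, 755 and 1357 TPM in PG. No library of one habitat reached the range of the other for either gene. PG lay above MZ in all of their fish, but the 2 rock-dwelling species did not differ at the threshold in hspb1 (adjusted p = 0.163) or dnajb1 (adjusted p = 0.0164, limma).

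The co-chaperones of Hsp90 followed. ptges3, known as p23, had 13.4, 13.4 and 13.1 TPM in DL and 2.94, 8.21 and 2.12 TPM in RL, against 52.5, 99.6 and 239 TPM in MZ and 503, 250.4 and 559 TPM in PG. ahsa1, which stimulates the ATPase of Hsp90, averaged 24.6 ± 14.8 TPM in open-water and 264 ± 157 TPM in rock-dweller muscle, and hsp90ab1 itself averaged 69.9 ± 22.1 TPM in open-water and 268 ± 67.6 TPM in rock-dweller muscle (SD, n = 6 each). Other concordant chaperone genes, picked out after their values were seen, were bag3, the partner of Hsp70 and small heat shock proteins in muscle, with 47.0 ± 20.7 TPM in open-water and 1080 ± 877 TPM in rock-dweller muscle, dnajb4 with 31.1 ± 8.78 TPM in open-water and 719.7 ± 699.6 TPM in rock-dweller muscle, and dnajb2 with 18.5 ± 5.44 TPM in open-water and 269 ± 195 TPM in rock-dweller muscle. hspa13, a concordant gene of the immediate-early and heat shock list, had 1.32 ± 0.512 TPM in open-water and 8.48 ± 2.84 TPM in rock-dweller muscle.

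Several transcription factors of the immediate-early response were lower as well. Others of this class did not pass by the habitat average: klf4 (habitat difference 0.17), egr2 (-0.16), jund (-0.46), nr4a2 (-0.57) and egr3 (-0.86). atf3, a stress-induced repressor, had 47.6, 28.2 and 35.3 TPM in DL and 13.2, 3.79 and 11.3 TPM in RL, against 160.0, 134 and 323 TPM in MZ and 838, 443 and 774 TPM in PG. jun, a subunit of AP-1, had 21.4, 17.5 and 12.5 TPM in DL and 7.86, 6.90 and 8.23 TPM in RL, against 55.3, 79.4 and 134 TPM in MZ and 91.5, 59.1 and 74.2 TPM in PG, a habitat difference of -2.68 ± 0.22 (SE). Its partners fosl1 and fosl2 averaged 2.45 ± 1.60 and 4.37 ± 1.61 TPM in open-water muscle, against 29.0 ± 12.5 and 32.4 ± 8.31 TPM in rock-dweller muscle (SD, n = 6 each). mafk, a small Maf protein, and gadd45g, which responds to growth arrest and DNA damage, averaged 11.4 ± 5.76 and 58.4 ± 21.0 TPM in open-water muscle, against 110.4 ± 43.1 and 361 ± 134 TPM in rock-dweller muscle.

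Of 38 tested immediate-early and heat shock genes, 19 were lower and 1 higher in open-water muscle by the habitat average, where 8.68% and 8.45% of all genes tested were, and 9 of them were concordant, all lower. The 9 were 2 without DL-2, 3 without DL-3, 4 without DL-1 or MZ-3 and 5 without MZ-2. The other 18 of the 38 did not pass, and the median difference of the list was -1.13. The gene that was higher, gadd45gip1, met the pattern used to build the list by its name and is a mitochondrial protein rather than a stress gene. The list summed to between 754 and 1712 TPM in open-water and to between 3269 and 9860 TPM in rock-dweller libraries. Genes of the list that were called by the habitat average but not in all 4 pairs included nr4a3, an orphan nuclear receptor induced by exercise, with 12.6 ± 8.06 TPM in open-water and 109 ± 53.4 TPM in rock-dweller muscle, and hspb8, a partner of bag3, with 152 ± 26.4 TPM in open-water and 1038 ± 894 TPM in rock-dweller muscle. hspa9, the Hsp70 of mitochondria, did not pass, with 96.3 ± 32.1 TPM in open-water and 103 ± 22.98 TPM in rock-dweller muscle, nor did hsf1, the regulator of heat shock genes, with 15.7 ± 3.43 TPM in open-water and 13.96 ± 1.26 TPM in rock-dweller muscle (SD, n = 6 each). Of 11 markers of immune cells, 5 were lower in open-water muscle as well, as given further on, and their part in these differences was not tested.

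**Figure D3:**
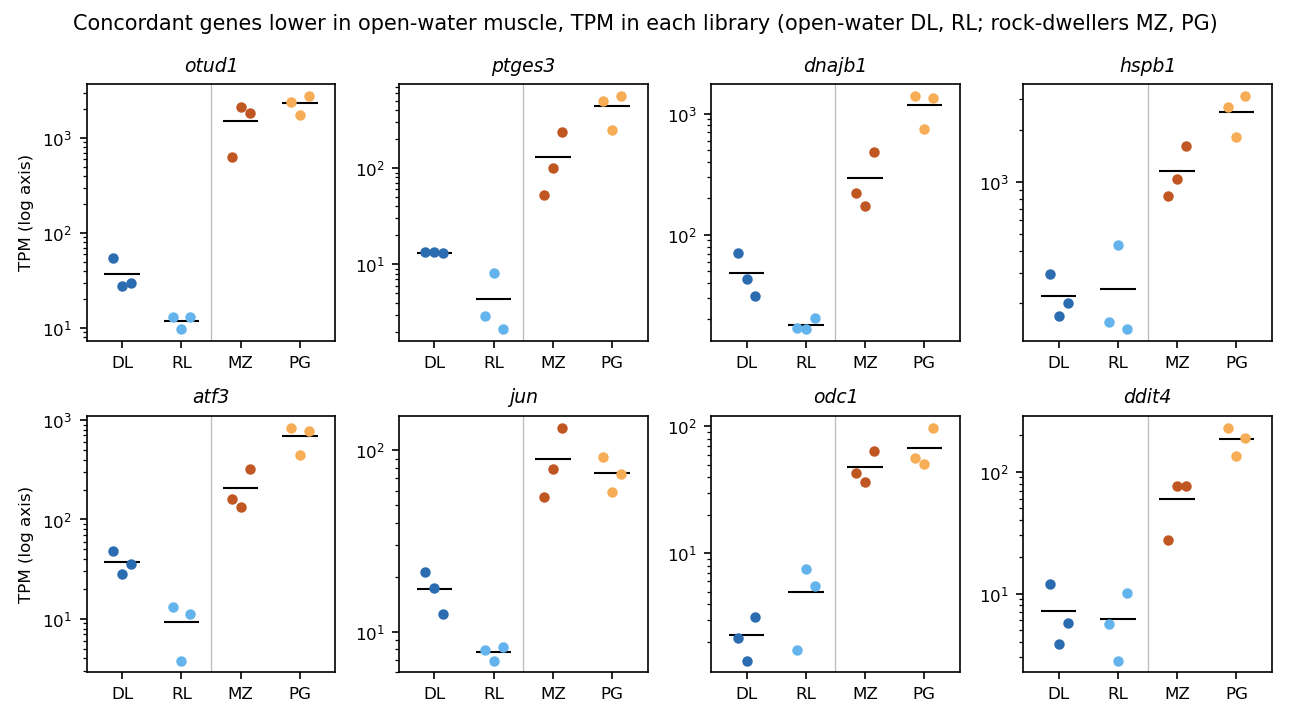
TPM of 8 concordant genes that were lower in open-water muscle, in each of the 12 libraries (points, log axes) with the mean of each species (lines). All 6 open-water libraries (DL, RL) lie below all 6 rock-dweller libraries (MZ, PG) in each panel, and the 3 PG lie above the 3 MZ for dnajb1, hspb1, atf3, ptges3 and ddit4.

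The gene with the largest smallest-of-4 difference in this direction was otud1, a deubiquitinase. It had 55.1, 27.4 and 29.9 TPM in DL and 12.95, 9.71 and 13.1 TPM in RL, against 627, 2113 and 1845 TPM in MZ and 2419, 1757 and 2762 TPM in PG. Its mean was 24.7 ± 17.1 TPM in open-water and 1921 ± 735 TPM in rock-dweller muscle (SD, n = 6 each), 77.8 times as high in rock-dwellers, with a largest adjusted p of 5.45e-05 (limma). mindy3, another deubiquitinase, averaged 2.67 ± 0.718 TPM in open-water and 77.9 ± 59.6 TPM in rock-dweller muscle, and the ubiquitin ligase herc4 averaged 8.88 ± 2.33 TPM in open-water and 160.6 ± 120.04 TPM in rock-dweller muscle.

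rrad, a small GTPase that restrains calcium channels, had 14.9, 9.24 and 12.6 TPM in DL and 6.44, 2.82 and 7.38 TPM in RL, against 75.2, 182 and 166 TPM in MZ and 364, 341 and 991 TPM in PG. odc1, which starts polyamine synthesis, had 2.17, 1.42 and 3.18 TPM in DL and 1.75, 7.46 and 5.57 TPM in RL, against 43.0, 36.8 and 64.3 TPM in MZ and 55.9, 50.7 and 97.8 TPM in PG. ddit4, an inhibitor of mTOR induced by energy stress and low oxygen, had 11.96, 3.85 and 5.74 TPM in DL and 5.57, 2.80 and 10.1 TPM in RL, against 27.7, 76.1 and 76.7 TPM in MZ and 231, 135 and 188 TPM in PG. The groups were apart in each of these genes.

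ptx3, a secreted pentraxin of innate immunity, was low in open-water muscle, at 0.164 to 0.966 TPM, and lay between 7.83 and 32.1 TPM in rock-dweller muscle. timp3, an inhibitor of matrix proteases, lay between 8.80 and 21.1 TPM in open-water and between 40.7 and 73.5 TPM in rock-dweller muscle. The remaining concordant genes with a symbol in this direction included 2 histone demethylases, kdm6b (habitat difference -3.34) and kdm7a (-1.48), the lamin gene lmna (-2.35), the sphingolipid enzyme sptlc2 (-2.98), the sensor of unfolded proteins atf6 (-2.07) and vgll2, a cofactor of muscle transcription (-1.52). gale, ppm1d, capg, tinagl1, eif4g2, fgf1, mylip, ltbp1, ccnl1, il17ra, slc7a5, map3k13, gna12, myo1e, ptpn7 and susd6 had habitat differences between -2.91 and -1.04.

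As in the other direction, most of these genes (116 of 161) have no symbol, which holds for 10422 of all 18101 genes tested. LOC106675214 averaged 10.1 ± 6.41 TPM in open-water and 2561 ± 3136 TPM in rock-dweller muscle (SD, n = 6 each), and LOC101486419 averaged 75.6 ± 35.3 TPM in open-water and 5268 ± 3584 TPM in rock-dweller muscle, with the 3 PG above the 3 MZ in both. LOC101473063 was listed at 0 TPM in every open-water library but DL-3, which had 0.284 TPM, and had 61.4, 103 and 88.3 TPM in MZ and 14.4, 23.6 and 42.2 TPM in PG. All 6 open-water libraries were listed at 0 TPM for 7 of the 161 genes, against 228 of all 18101 genes tested. All 6 rock-dweller libraries were for 1 of the 98, against 117 of all 18101. Such genes could pass the filter only through the other habitat. Reads of DL, RL and PG were matched to transcripts of MZ, and what sequence differences between the species did to the levels of single genes was not tested.

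Few of the concordant genes were called within a habitat. DL and RL differed in 4 of the 259 genes, against 88 of all 18101 genes tested (0.486%). MZ and PG differed in 5 of the 259, against 205 of all genes tested (1.13%). Both shares of the 259 lay above those of all genes. The rule favours genes with a small spread between fish, so these counts describe the selection. PG had a higher mean than MZ in 82 of the 161 genes that were lower in open-water muscle, against 7092 of all 18101 genes tested. RL had a higher mean than DL in 46 of the 98 that were higher, against 6273 of all 18101. Among the 6 rock-dweller libraries MZ-1 was the nearest to the open-water range in 114 of the 259 genes, 49 of those higher and 65 of those lower in open-water muscle. That place was not counted over all genes. MZ-1 was the highest of the 3 MZ in 66 of the 98 genes, against 6293 of all 18101. It was the lowest of the 3 MZ in 102 of the 161, against 5245 of all 18101.

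Other parts of the muscle programme had smaller median differences than the lists of energy genes and of immediate-early and heat shock genes. Genes of the sarcomere, myogenic and collagen lists were still called more often than all genes. Over all genes tested the habitat average called 8.45% as higher and 8.68% as lower. Of 25 tested genes of the sarcomere, 3 were higher, 5 lower and 17 did not pass, with a median difference of 0.10. Of 20 genes of excitation and calcium handling, 3 were higher and 1 lower. Of 72 genes matched by the pattern for cytosolic ribosomal proteins, the 2 called ones, rps6ka5 (0.71) and rps6ka3 (-1.12), encode kinases and not ribosomal proteins, and the median difference was -0.34. Myogenic and growth factors had 8 higher and 1 lower of 32, prdm11 among the higher ones having been caught by the pattern for prdm1. Collagens and matrix had 10 higher and 5 lower of 50, and 1 of the higher ones, col4a3bp, encodes a ceramide carrier. Protein breakdown had 1 higher and 3 lower of 45, the circadian clock 1 higher and 1 lower of 11, and oxygen binding and hypoxia 0 higher and 2 lower of 12 (hif1a and ddit4). When single libraries were left out, the higher genes ranged from 3 to 12 for collagens, from 5 to 8 for myogenic factors and from 1 to 3 for excitation, the lower ones from 1 to 5 for the ribosomal pattern and from 1 to 3 for protein breakdown.

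Some markers of immune cells differed between the habitats. Of 11 tested genes 5 were lower and 0 higher in open-water muscle (limma, adjusted p under 0.01), and the list summed to between 50.3 and 215 TPM in open-water and to between 133 and 391 TPM in rock-dweller libraries. The 5 were 2 without DL-2, RL-3 or MZ-3 and 3 without DL-3, RL-1, RL-2, MZ-1 or MZ-2. ptprc, the marker of all white blood cells, lay between 1.72 and 6.50 TPM in open-water and between 5.02 and 13.9 TPM in rock-dweller muscle, and cd3e, a marker of T cells, between 0 and 0.332 TPM in open-water and between 0.675 and 4.20 TPM in rock-dweller muscle. None of the 11 was concordant. The lists of blood (1 higher and 0 lower of 4), fat (1 and 1 of 6), skin and pigment (1 and 2 of 9), nerve (0 and 1 of 4) and endothelium (1 and 1 of 7) had summed levels that overlapped between the habitats. The blood gene that was higher was rhag, with 11.2 ± 5.52 TPM in open-water and 1.74 ± 2.01 TPM in rock-dweller muscle (SD, n = 6 each, adjusted p = 0.00106, limma). Of the other tested blood genes, slc4a1ap and slc4a11 were caught by the pattern only. The part of other cell types in the differences of concordant genes was not tested, and in whole pieces of muscle fewer cells of a type and less RNA per cell cannot be told apart.

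**Figure D4:**
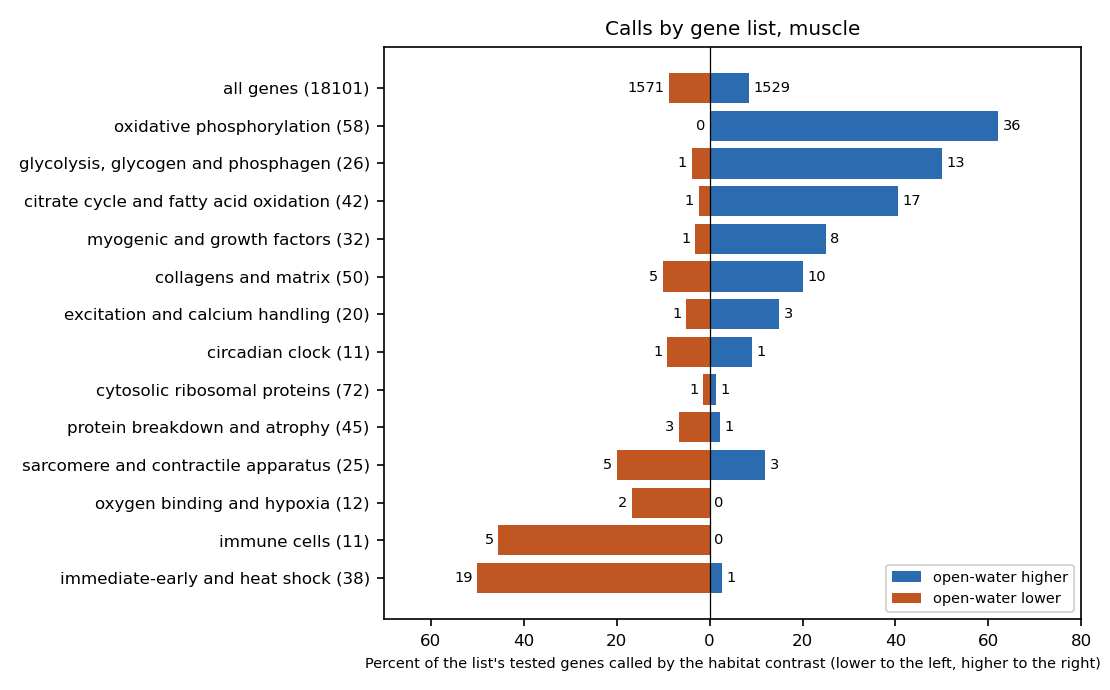
Percent of the tested genes of each list (number in brackets) that were called by the habitat average in muscle, to the right where open-water was higher and to the left where it was lower, with the counts beside the bars, for lists with at least 10 tested genes. Oxidative phosphorylation (36 of 58) and the list of glycolysis, glycogen and phosphagen (13 of 26) lie on the right. Immediate-early and heat shock genes (19 of 38) lie on the left. For all genes the counts were 1529 and 1571 of 18101.

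Liver libraries of the same 4 species (5 open-water, 6 rock-dweller) were a readout that the rule did not use, though they came from 11 of the same fish. The liver habitat average called 23 of the 98 genes as higher (10.9% of all 20549 genes tested over both tissues were) and 44 of the 161 as lower (5.25% were). The sign was the same in both tissues for 83 of 98 and 121 of 161, against 13387 of 20549 genes. Of all genes, 16.1% were called in liver in either direction and 12.3% with the sign of muscle. ddit4, odc1, ptges3, fosl2, mgarp and gbe1 were among the genes called in the same direction. odc1 had 7.17 ± 5.605 TPM in open-water livers (n = 5) and 86.7 ± 69.7 TPM in rock-dweller livers (n = 6), and mgarp had 7.96 ± 4.01 TPM in open-water livers and 0.894 ± 0.521 TPM in rock-dweller livers (SD).

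Differences of gpi, gapdh, pgk1, pgm1, gpd1 and bpgm were larger in muscle than in liver, and that of gbe1 did not differ between the tissues at the threshold. The interaction of habitat and tissue, the habitat difference in muscle minus that in liver, was called for 68 of the 98 genes with the muscle difference above that of liver (2.69% of all genes were) and for 85 of the 161 with it below (5.18% were), out of 7.87% called in all. Its muscle term is the contrast that chose the genes, so these counts are no independent evidence. gapdh had 2580 ± 1008 TPM in open-water livers (n = 5) and 1019 ± 258 TPM in rock-dweller livers (n = 6), a liver difference of 1.17 (adjusted p = 0.037, limma) and an interaction of 3.67 ± 0.56 (SE). gpi, gpd1 and bpgm were close to absent from liver. They had up to 8.85, 3.40 and 0.397 TPM in open-water and up to 0.578, 0.090 and 0.452 TPM in rock-dweller livers.

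A few genes ran in opposite directions in the 2 tissues, with 4 of the 161 called as higher and 3 of the 98 called as lower in open-water livers. Over all 20549 genes tested in both tissues, 785 were called in liver with the sign opposite to that in muscle. hspb1 had 24.3 ± 9.99 TPM in open-water livers (n = 5) and 2.40 ± 1.85 TPM in rock-dweller livers (n = 6), a liver difference of 2.85 ± 0.35 (SE, adjusted p = 9.15e-06, limma) against -2.96 in muscle. pdk4 had 15.7 ± 8.25 TPM in open-water livers and 46.2 ± 26.5 TPM in rock-dweller livers, a liver difference of -1.44 (adjusted p = 0.00559, limma) against 2.83 in muscle. dnajb1 had a liver difference of 1.70 (adjusted p = 0.00971, limma) although its mean was 132 ± 79.2 TPM in open-water and 130.2 ± 172 TPM in rock-dweller livers, and the rock-dweller livers spread between 3.38 and 368 TPM. With the fish as a block its adjusted p was 0.0103.

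**Figure D5:**
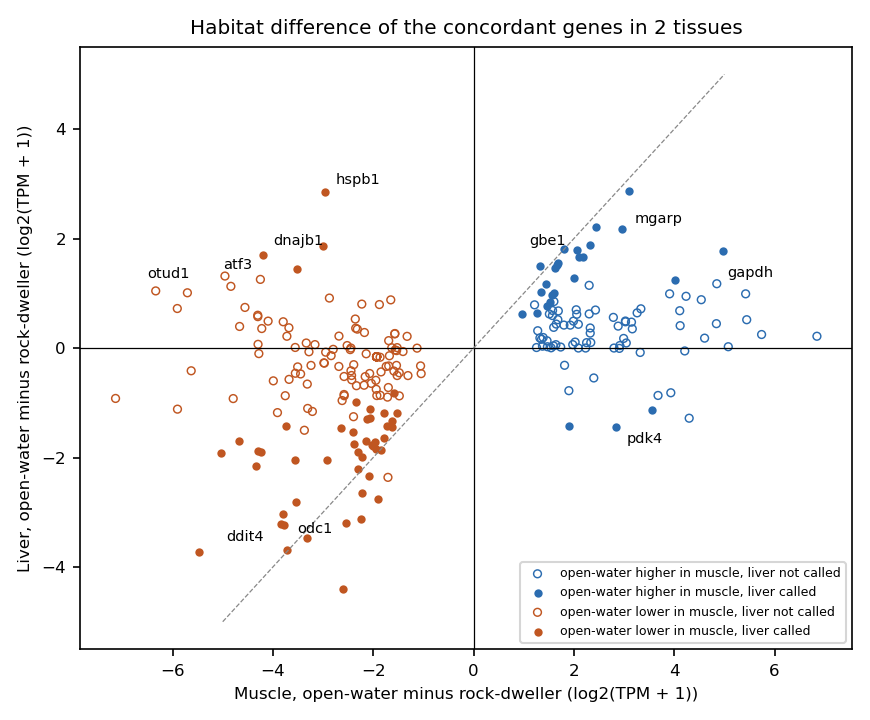
Habitat difference (open-water minus rock-dweller, log2(TPM + 1)) of the 259 concordant genes in muscle (horizontal axis) and in liver (vertical axis), with filled points for genes called in liver and a dashed line of equal differences. odc1, ddit4 and mgarp lie on the same side in both tissues, and hspb1, dnajb1 and pdk4 on opposite sides.

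The threshold separated genes of almost the same p. LOC101465710 was the last gene inside, with a largest adjusted p of 0.009996, and LOC101478927 was the first outside, with 0.01002. At an adjusted p under 0.05 in all 4 pairs 334 genes were higher and 448 lower in open-water muscle. The count of 259 was 160 without DL-1, 124 without DL-2, 77 without DL-3, 170 without RL-1, 154 without RL-3, 103 without MZ-2, 91 without MZ-3 and 169 without PG-3 (library numbers are only names), and 15 when each pair was fitted on its own 6 libraries. All 259 were among 777 genes called when species was a random block within habitat. That fit used the same muscle libraries that chose the genes, with a correlation shared by all genes, so it is no independent evidence.

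All p-values measure the spread between fish. With 2 species per habitat a permutation of species cannot give a two-sided exact p below 0.333. Habitat cannot be told apart from lineage, since MZ and PG both belong to the mbuna, nor from diet, place and gear of capture, the time between death and sampling, or distance from the MZ reference.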

How the data were processed

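Total RNA of homogenised muscle and liver was depleted of ribosomal RNA and sequenced. The authors trimmed the reads with Trim Galore, assigned them with kallisto to the M. zebra transcriptome (UMD2a) for every species, and deposited TPM values per gene and library. Versions are not given in the labels. TPM keeps no counts, so the reads behind a single value cannot be read from the files and no count model was used. Read totals per library in the study's sample sheet were not used here. Columns with the authors' species means, and the lists of methylated regions, were not used. The columns give species but no replicate number.

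After log2 transformation of TPM + 1, the 12 muscle libraries were fitted together in limma 3.58.1 (R 4.3.3), species being the only term and the variance prior following the mean level. A gene was tested where 2 or more libraries reached 1 TPM. Each contrast was adjusted by Benjamini-Hochberg, with a threshold of 0.01. Fold changes on this scale understate low genes. A fit of 23 libraries, 12 of muscle and 11 of liver, gave the liver contrast and the interaction on 20549 genes. Muscle and liver of a fish came from the same animal by the study's sample sheet, and their deviations from group means correlated between 0.0920 and 0.160 (11 fish, 10 above 0.1), so the fish was a block in an alternative. The muscle fit was run on simulated data with independent spread between fish and the same shift in both open-water species. The simulation held no differences between the species of a habitat, so it cannot show how such differences affect the calls.

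The genes named are concordant and average 10 TPM or more in both species of the higher habitat: the 10 with a symbol and the 3 without one, per direction, with the largest smallest-of-4 difference, and all on a gene list. Concordant genes with a symbol outside this rule are given by symbol, and list genes by their role. The comparison, the lists and the rule were chosen with earlier results of these data known. Lists were matched by symbol, so genes without a symbol are missed and unrelated genes are caught, among them gadd45gip1, rps6ka5, rps6ka3, rps6kc1, rps19bp1, tefm, col4a3bp, prdm11, slc4a1ap, slc4a11, krtcap2, krt222 and lepr. Of the symbols listed, 12 had turned into date numbers, and none of these was concordant. No sequences were used here. Alternatives were pseudocounts of 0.1 and 0.5, other filters, quantile normalization, median centring, robust moderation, array weights, single pairs, other rules for concordant genes, a species block, the fish as a block, and each library left out. Python 3.11.15, pandas 2.3.3, numpy 2.4.6 and matplotlib 3.10.9 drew the figures.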

Additional observations from a re-analysis of the deposited data

Results flagged for a closer look

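In 26 of the 36 named genes the habitat difference in muscle differed from that in liver by the interaction test (limma, adjusted p under 0.01). Over all genes tested in both tissues 7.87% were called. The named genes were chosen by their muscle difference, which is a term of this test, so the count is no independent evidence. The interaction, muscle minus liver on the log2(TPM + 1) scale, was positive for 12 genes. It was 6.63 for LOC101465328, 5.05 for LOC101467847, 4.93 for gpi, 4.42 for LOC101468896 and 4.27 for pdk4. It was 3.71 for gpd1, 3.67 for gapdh, 3.43 for pgk1 and 3.40 for bpgm, and 2.92 for pgm1, 2.81 for ppp1r3f and 1.68 for gchfr. Of these, pdk4 was lower in open-water livers and the other 11 were not called in liver. LOC101465328, LOC101467847, LOC101468896, gpi, gpd1, bpgm and ppp1r3f averaged at most 1.91 TPM in livers of either habitat. At such levels the log2(TPM + 1) scale leaves little room for a liver difference. gapdh, pgk1, pgm1 and gchfr averaged at least 13.2 TPM in livers of both habitats.

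The interaction was negative for 14 genes. It was -7.38 for otud1, -6.63 for LOC101486419, -6.22 for LOC106675214, -5.97 for rrad and -5.90 for dnajb1. It was -5.81 for hspb1, -5.50 for atf3, -3.57 for ptx3, -3.39 for mindy3 and -2.98 for ptges3. It was -2.92 for mafk, -2.66 for ahsa1, -2.35 for jun and -1.36 for hsp90ab1. In liver, ptges3 was called as lower and hspb1 and dnajb1 as higher in open-water fish. The dnajb1 means were 132 TPM in open-water and 130 TPM in rock-dweller livers. With the fish as a block the adjusted p of dnajb1 in liver was 0.0103 (limma). The other 11 were not called in liver. Among those 11, otud1, LOC101486419, rrad and ptx3 averaged at most 2.60 TPM in livers of either habitat, where the scale leaves little room. The others averaged at least 6.21 TPM in livers of both habitats. The fish as a block added LOC101473063 to the interaction calls (adjusted p = 0.00901, limma) and removed none of the named genes from them.

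By Dixon's test of the gap over the range, taken on the log2(TPM + 1) scale, single libraries stood apart in 5 of 72 groups of 6 libraries. Chance does this in about 1 group in 20. MZ-1 had 627 TPM of otud1, against 1757 to 2762 TPM in the other rock-dweller muscles (gap over range 0.695), and 58.4 TPM of ppp1r3f, against 11.999 to 21.6 TPM (0.636). PG-3 had 73.5 TPM of timp3, against 40.7 to 49.7 TPM in the others (0.664). For LOC101467847 in rock-dwellers and LOC101473063 in open-water fish the gap over range was 1, since all libraries but PG-3 and DL-3 were listed at 0 TPM.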

How the results depend on the processing

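The number of concordant genes moved with the settings, and so did their split by direction. The share that was higher in open-water muscle ran from 27.2% without RL-2 to 54.8% without DL-2, against 37.8% in the reported fit. The 259 genes (98 higher, 161 lower) were 149 (55 and 94) with no filter, 413 (160 and 253) with array weights, 15 (5 and 10) with each pair fitted alone, 782 (334 and 448) at an adjusted p under 0.05, 942 (370 and 572) when the habitat average was called with at least 1 on the log2 scale in each pair, and 781 (305 and 476) when the libraries did not overlap with the same minimum. Without single libraries they were 77 to 231 (29 to 86 and 47 to 150). The pair counts of 615 (DL against MZ), 1921 (DL against PG), 1054 (RL against MZ) and 2140 (RL against PG) were 123, 577, 330 and 689 when fitted alone and ranged over 203 to 587, 819 to 1987, 496 to 1086 and 1130 to 1992 without single libraries. With genes limited to means of 5 TPM or more, DL against MZ gave 399, and array weights gave 1020 for it and 1797 for RL against MZ. The habitat average called 3100 genes, 1988 under the same limit, 777 with species as a random block, and 2084 to 2910 without single libraries.

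None of the 36 named genes changed sign under 21 settings. This was fixed beforehand under all settings but quantile normalization and median centring, since open-water and rock-dweller libraries did not overlap in these genes. mgarp, otud1, LOC101465328, LOC101467847, LOC101473063 and LOC101486419 stayed concordant under each setting, while gpi, hsp90ab1 and ppp1r3f missed the threshold of a pair under 13. Without single libraries the habitat average called 13 genes of the glycolysis, glycogen and phosphagen list and 27 to 41 of oxidative phosphorylation as higher. It called 17 to 18 immediate-early and heat shock genes as lower. Concordant genes numbered 1 to 8 in the glycolysis, glycogen and phosphagen list and 2 to 9 in immediate-early and heat shock. Quantile normalization and median centring gave 367 and 343 concordant genes, 40.1 and 32.1% of them higher (37.8% in the reported fit), and the median difference of DL against PG over all genes was 0.09 and 0.02, against 0.21. Between the habitats, no paired analysis was possible because the muscle columns carry no replicate numbers and the species share no fish. Between tissues, with the fish as a replicate block the interaction of habitat and tissue called 1941 genes, against 1617. Overlap with methylated regions was not run, since no annotation of the regions' build was used here. TPM do not show how many reads stand behind a low value.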
